A study of Homo sapiens with 8 samples.

Results

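The genes described here are 9 members of the TGF-beta and SMAD pathway, TGFB1, TGFB2, TGFBR1, TGFBR2, SMAD2, SMAD3, SMAD4, SMAD7 and SKIL. They were taken from the 20263 genes of the expression table by matching each human Ensembl identifier to its gene symbol, and all 9 were found. Expression had been measured by mRNA sequencing in PANC-1 cells, an established human line from a pancreatic ductal carcinoma, of which 4 libraries came from cells given 10 μM eupalinolide B (EB) for 24 h and 4 from cells given DMSO, the vehicle. EB is a compound from the plant Eupatorium lindleyanum. No gene was altered in either group, all 8 libraries come from this 1 line, and the question put to these genes is how EB changed their RNA. The values are TPM, a transcript abundance scaled for transcript length and to the same total in every library, so levels can be compared between genes, but it is not known how many reads a value rests on.

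TGF-beta is a secreted signal that reaches the cell through a pair of receptor kinases. The ligand binds TGFBR2, TGFBR2 activates TGFBR1, and TGFBR1 phosphorylates SMAD2 and SMAD3, which join SMAD4 and bind DNA in the nucleus. SMAD7 blocks the receptors and SKIL holds SMAD complexes inactive on DNA, and both are themselves induced by the pathway, so they act as feedback. In pancreatic ductal carcinoma the pathway is known for restraining growth of epithelial cells early on, for promoting invasion later, and for the frequent loss of SMAD4.

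The SMAD7 and SKIL promoters are shown because the ratio between these feedback genes within a library differed between EB and DMSO in the main setting. That call was lost under other scalings, where its adjusted p also depended on the other ratios, as given below. SKIL alone did not differ. The windows are from RefSeq on GRCh38.p14 and run from 250 bases before the start site through the first 50 bases of the gene. SMAD7 is at chr18:48950916-48951215 on the minus strand and SKIL at chr3:170357465-170357764 on the plus strand, and capitals mark CAGAC or its reverse complement GTCTG, the core that SMAD3 and SMAD4 are known to bind.
SMAD7: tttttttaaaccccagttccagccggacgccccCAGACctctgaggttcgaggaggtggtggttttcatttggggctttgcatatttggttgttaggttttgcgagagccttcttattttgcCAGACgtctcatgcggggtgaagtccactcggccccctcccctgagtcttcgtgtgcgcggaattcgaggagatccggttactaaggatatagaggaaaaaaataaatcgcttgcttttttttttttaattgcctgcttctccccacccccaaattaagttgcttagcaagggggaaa
SKIL: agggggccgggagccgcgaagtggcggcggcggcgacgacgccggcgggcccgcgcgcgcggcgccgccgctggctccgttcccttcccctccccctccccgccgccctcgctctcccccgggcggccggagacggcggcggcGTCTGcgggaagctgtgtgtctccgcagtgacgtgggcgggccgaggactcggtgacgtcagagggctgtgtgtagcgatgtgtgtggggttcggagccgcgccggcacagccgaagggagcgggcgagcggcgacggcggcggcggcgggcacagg
The SMAD7 window held CAGAC at 2 places, starting at -217 and -128 from the start site, and the SKIL window held GTCTG at -107. Either form stood in the windows of 5 of the 9 members (TGFB2, TGFBR1, SMAD3, SMAD7 and SKIL), against 45.28% of the 34796 windows in the RefSeq table, and 13.05% of all windows held 2 or more. The palindrome GTCTAGAC was in none of the 9 windows and in 0.19% of all windows. For each member 1 window was searched, the nearest to the start of its canonical transcript. TGFBR1, TGFBR2, SMAD2, SMAD3 and SMAD7 have further RefSeq windows that were not searched, while the shares of all windows count every distinct window. These matches describe the letters in the windows and nothing about binding in these cells.

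The 8 libraries were checked before the members were read. Pearson correlations of log2(TPM + 1) were 0.970 to 0.986 among DMSO libraries, 0.981 to 0.986 among EB libraries and 0.932 to 0.956 between the groups. Mitochondrially encoded genes took 17% to 39.0% of the TPM in DMSO libraries, with DMSO replicate 4 at the top, and 11.6% to 20.3% in EB libraries. Of 7 ductal epithelial markers, KRT8, KRT18 and KRT19 were abundant, with a summed level of the list of 1129 to 1594 TPM in DMSO and 3262 to 3652 TPM in EB, while KRT7 and EPCAM stayed below 1 TPM and CFTR was listed at 0 in every library. KRT7 and EPCAM this low are unusual for a ductal carcinoma line, and the line is called PANC-1 from its label, with no check of its identity. The member TGFBR2, the receptor that binds the ligand, was also near 0, at no more than 0.299 TPM in any library. Of 10 markers of leukocytes, endothelium, fibroblasts, acinar cells and islets, 8 were at 0 in every library, and the summed level of the list, 62.0 to 90.0 TPM in DMSO and 37.7 to 49.5 TPM in EB, was almost all COL1A2. Groups were compared with limma on log2(TPM + 1) over the 11725 genes at 1 TPM or more in at least 4 libraries, and called at a Benjamini-Hochberg adjusted p under 0.05. Of these, 40.3% were called, 15.2% higher and 25.1% lower with EB, and the median log2 fold change over all of them was -0.11.

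Of the 9 members, 5 (TGFB1, TGFBR1, SMAD2, SMAD3 and SMAD4) were above 1 TPM in all 8 libraries and 4 (TGFB2, TGFBR2, SMAD7 and SKIL) did not reach the filter. SMAD2 was the 1 member called among the 5, against the 40.3% of all genes tested, and it fell. At the thresholds used in the study, an unadjusted p under 0.05 with an absolute log2 fold change above 1.5, none of the 5 was called, against 2.08% of all genes (244). Below the filter, SMAD7 was higher and TGFB2 lower in every EB library than in every DMSO library. Of the 4417 genes above 0 but below the filter, 12.2% had groups that did not overlap. By exact permutation of the 8 libraries both members had p = 0.0286, which was not adjusted over the members. In bulk RNA, fewer cells expressing a gene and less of its RNA per cell cannot be told apart. Nothing in the labels says that the libraries of a group came from separate cultures, although the methods of the study call them biological replicates, and p-values measure the spread between these libraries.

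**Figure D1:**
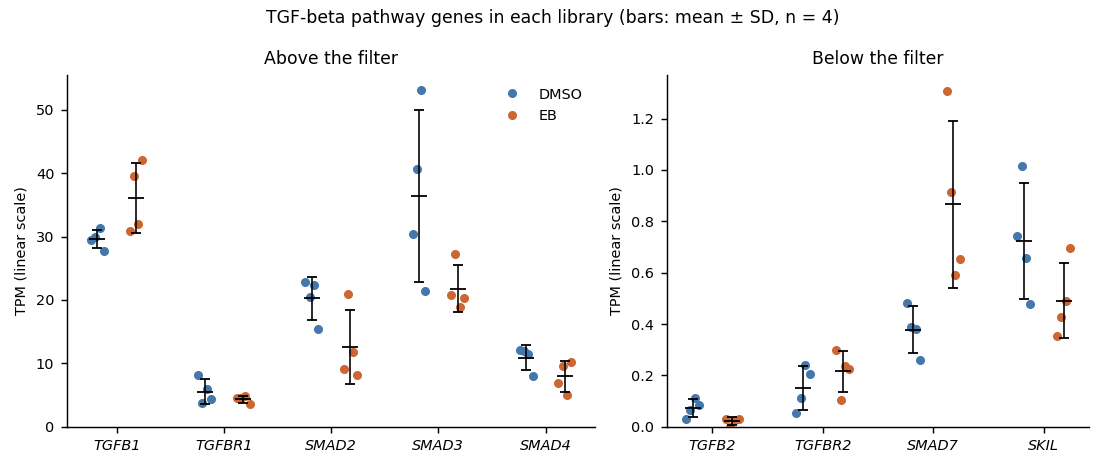
TPM of the 9 members in each library on a linear axis, the 5 above the filter at the left and the 4 below it at the right, with DMSO in blue and EB in orange, and bars for the mean and SD of 4 libraries. The SMAD7 points of EB all sit above those of DMSO, the SMAD2 group of EB holds 1 library at the DMSO level, and the axes of the panels differ because TGFB2, TGFBR2, SMAD7 and SKIL all lie at or below 1.31 TPM.

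TGFB1 (ENSG00000105329, chr19:41301587-41353922, minus strand, hg38) encodes the most widely expressed TGF-beta ligand. Its level in DMSO replicates 1 to 4 was 29.4, 29.9, 31.3 and 27.8 TPM, and in EB replicates 1 to 4 it was 30.9, 39.6, 32.0 and 42.1 TPM. The mean was 29.6 ± 1.44 TPM (SD, n = 4) in DMSO and 36.1 ± 5.51 TPM in EB. EB replicates 2, 3 and 4 stood above all DMSO libraries, replicate 3 by less than 1 TPM, EB replicate 1 lay within the DMSO range, and the DMSO libraries were close together. The log2 fold change of 0.27 (95% CI -0.03 to 0.57) did not pass the test, with an adjusted p of 0.135 in limma and p = 0.0571 by the exact two-sided permutation test. It was 0.089 (adjusted p 0.634) with mitochondrially encoded genes removed and 0.38 (0.0501) after median-ratio scaling. An exon of HNRNPUL1 overlaps TGFB1 on the opposite strand, and whether strand was used in counting is not given in the sources used here.

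TGFB2 (ENSG00000092969, chr1:218345336-218444619, plus strand), a second ligand of the same receptors, was close to 0. It had 0.0318, 0.0655, 0.113 and 0.0835 TPM in DMSO, and 0.0300, 0.0266 and 0.0306 TPM in EB replicates 1, 3 and 4, with EB replicate 2 listed at 0. The groups did not overlap, but DMSO replicate 1 and EB replicate 4 were separated by a gap of the third decimal, and the difference in mean log2(TPM + 1) was -0.07. The exact permutation p was 0.0286, the smallest that 4 against 4 libraries can give. It was 0.114 after median-ratio scaling, 0.171 after quantile normalization and 0.0571 with mitochondrially encoded genes removed. Of the 4417 genes above 0 but below the filter, 12.2% also had groups that did not overlap, against 36.8% of the genes tested. TGFB2 also shares exons with TGFB2-OT1 on its own strand and TGFB2-AS1 on the other, so its reads cannot be separated from theirs here.

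TGFB3, the remaining ligand of the family, was at 12.2 ± 2.09 TPM in DMSO and 13.4 ± 1.82 TPM in EB (log2 fold change 0.12, adjusted p 0.551). Of the 14 genes on the list of ligands and their release, 8 were tested, 1 rose, 2 fell, and the median log2 fold change was 0.05. That median moved to -0.20 with mitochondrially encoded genes removed and to -0.13 without DMSO replicate 4. ITGAV, an integrin chain that helps free TGF-beta from its latent complex, fell from 7.21 ± 2.23 to 1.88 ± 1.35 TPM (log2 fold change -1.57, adjusted p 0.00394). LTBP4, which tethers latent TGF-beta in the matrix, fell from 42.6 ± 7.91 to 26.9 ± 3.19 TPM, and NRROS, a membrane anchor of latent TGF-beta, rose from 6.24 ± 1.08 to 9.86 ± 0.739 TPM.

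TGFBR1 (ENSG00000106799, chr9:99104038-99154192, plus strand) is the kinase that phosphorylates SMAD2 and SMAD3. It was at 8.21, 3.71, 5.88 and 4.34 TPM in DMSO and 4.46, 4.54, 4.81 and 3.52 TPM in EB. DMSO replicates 1 and 3 were above all EB libraries, and DMSO replicates 2 and 4 lay within the EB range. The mean of 5.54 ± 2.0 TPM in DMSO and 4.33 ± 0.562 TPM in EB gave a log2 fold change of -0.25 (95% CI -0.71 to 0.21, adjusted p 0.349). The estimate was 0.059 after quantile normalization and 0.078 once a spline trend on length and GC content was removed, with adjusted p of 0.816 and 0.810. It was -0.42 (0.0759) with mitochondrially encoded genes removed, -0.071 without DMSO replicate 1 and -0.39 without DMSO replicate 2.

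TGFBR2 (ENSG00000163513, chr3:30606601-30694142, plus strand), the receptor that binds the ligand, was far below TGFBR1. Its values were 0.0521, 0.111, 0.239 and 0.204 TPM in DMSO and 0.299, 0.105, 0.236 and 0.224 TPM in EB. The groups overlapped, with a difference of 0.08 in mean log2(TPM + 1) and an exact permutation p of 0.314. The third receptor on the list, TGFBR3, a co-receptor that presents the ligand, fell from 6.48 ± 2.30 to 1.67 ± 0.317 TPM (log2 fold change -1.43, adjusted p 0.00163), and every EB library was below every DMSO library. Of the 5 receptors on the list 3 were tested, and TGFBR3 was the 1 called.

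SMAD2 (ENSG00000175387, chr18:47808957-47931146, minus strand) carries the receptor signal to the nucleus. Its level was 22.8, 20.5, 22.3 and 15.4 TPM in DMSO and 9.14, 21.0, 11.8 and 8.20 TPM in EB. EB replicates 1, 3 and 4 lay below all DMSO libraries and EB replicate 2 lay among them, so the groups overlapped. SMAD2 fell from 20.3 ± 3.38 to 12.5 ± 5.83 TPM, a log2 fold change of -0.73 (SE 0.26, 95% CI -1.31 to -0.15) at an adjusted p of 0.0481, while the exact permutation p was 0.0857. The call stood when DMSO replicate 4 or EB replicate 2 was left out, at -0.85 and -0.99, and was lost without any 1 of the other 6 libraries, at values of -0.73 to -0.57 and adjusted p of 0.0949 to 0.120. It was also lost with a pseudocount of 0.1 (adjusted p 0.0560), with no filter (0.0895) and with the length and GC trend removed (-0.47, 0.184).

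SMAD3 (ENSG00000166949, chr15:67063763-67195173, plus strand), the partner of SMAD2 that binds DNA directly, was at 30.4, 40.7, 53.1 and 21.4 TPM in DMSO. In EB it was at 20.8, 27.3, 18.9 and 20.3 TPM. The DMSO libraries spread widely, and DMSO replicate 4 sat within the EB range. The means of 36.4 ± 13.6 and 21.8 ± 3.73 TPM gave a log2 fold change of -0.65 (95% CI -1.21 to -0.09), with an adjusted p of 0.0625 in limma and p = 0.0571 by exact permutation. Without DMSO replicate 4 the value was -0.87 and passed the test (adjusted p 0.00657), and it also passed after median-ratio scaling (-0.54, 0.0379), after quantile normalization (-0.57, 0.0395) and with mitochondrially encoded genes removed (-0.84, 0.00904). It was -0.33 (adjusted p 0.260) with the length and GC trend removed and -0.45 (0.156) without DMSO replicate 3. An unnamed gene (ENSG00000259347) shares exon sequence with SMAD3 on the opposite strand.

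SMAD4 (ENSG00000141646, chr18:51028528-51085045, plus strand), the shared partner of the TGF-beta and BMP SMADs, was present in every library. It was at 12.1, 12.0, 11.5 and 8.04 TPM in DMSO and 6.87, 9.59, 5.03 and 10.2 TPM in EB. The first 3 DMSO replicates were above all EB libraries, and DMSO replicate 4 fell among them. The log2 fold change was -0.44 (95% CI -0.92 to 0.04) with an adjusted p of 0.126 and an exact permutation p of 0.171. It passed the test without DMSO replicate 4 (-0.57, adjusted p 0.0474) and with mitochondrially encoded genes removed (-0.62, 0.0306). Its value was -0.27 without EB replicate 3, -0.17 after quantile normalization and -0.03 with the length and GC trend removed. A gene on the same strand (ENSG00000267699) overlaps its exons.

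SMAD7 (ENSG00000101665, chr18:48919853-48950965, minus strand), the feedback inhibitor that targets the receptors for destruction, was low in all libraries. Its values were 0.484, 0.388, 0.380 and 0.259 TPM in DMSO and 1.31, 0.915, 0.592 and 0.653 TPM in EB. Every EB library was above every DMSO library, and the EB libraries differed among themselves by more than the DMSO libraries did. The mean was 0.378 ± 0.0919 TPM in DMSO and 0.867 ± 0.325 TPM in EB, a ratio of 2.29, and the difference in mean log2(TPM + 1) was 0.43 with an exact permutation p of 0.0286. That p is the smallest this test can give, so it says only that the groups did not overlap. It was the same under each of the 5 other settings of pseudocount, scaling and length and GC content. A changed pseudocount keeps the order of the libraries, so p could not move under that setting. Under the scalings and with the length and GC trend removed, the same p means that the groups stayed apart. The adjusted p was 0.0373 in limma without the filter. Leaving out 1 library at a time kept the difference between 0.32 and 0.50.

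SKIL (ENSG00000136603, chr3:170357342-170396835, plus strand), the nuclear repressor shown above beside SMAD7, was at 0.742, 1.02, 0.656 and 0.477 TPM in DMSO and 0.354, 0.426, 0.489 and 0.697 TPM in EB. EB replicates 3 and 4 lay within the DMSO range. The mean of 0.723 ± 0.225 TPM in DMSO and 0.492 ± 0.148 TPM in EB gave no difference that passed the exact permutation test (difference in mean log2(TPM + 1) of -0.20, p = 0.143). The related repressor SKI was far more abundant and fell from 44.1 ± 10.5 to 26.8 ± 5.44 TPM (log2 fold change -0.68, adjusted p 0.0278). SMAD6, the other inhibitory SMAD, was below the filter at 0.918 ± 0.394 TPM in DMSO and 0.410 ± 0.108 TPM in EB, where every EB library was below every DMSO library (exact permutation p = 0.0286).

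Per transcript length, the order of the mean levels in DMSO ran from SMAD3 through TGFB1, SMAD2, SMAD4, TGFBR1, SKIL, SMAD7 and TGFBR2 to TGFB2. The libraries of SMAD3 and TGFB1, of SMAD4 and TGFBR1, of SKIL and SMAD7, and of TGFBR2 and TGFB2 overlapped, so these neighbours were not separated. With EB the order ran from TGFB1 through SMAD3, SMAD2, SMAD4, TGFBR1, SMAD7, SKIL and TGFBR2 to TGFB2. There the neighbours that overlapped were SMAD3 with SMAD2, SMAD2 with SMAD4, and SMAD7 with SKIL. TGFB1 and SMAD3 changed places, although they overlapped in DMSO, and so did SMAD7 and SKIL, which overlapped in both groups.

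Within each library 5 ratios of members were compared, each as log2 of (TPM + 1) over (TPM + 1) with p-values adjusted over the 5. Because of the added 1, ratios that hold a gene near or below 1 TPM still depend on the scaling of the library. Each difference in a ratio is the difference in log2(TPM + 1) of its first member, given above, minus that of its second. SMAD7 to SMAD3 and SKIL to SMAD7 both hold the rise of SMAD7, so they are not separate results. The ratio of SMAD7 to SMAD3 was -4.69 ± 0.51 in DMSO and -3.61 ± 0.27 in EB, higher by 1.08 with no overlap (exact permutation, adjusted p 0.0476). SKIL to SMAD7 went from 0.32 ± 0.15 to -0.31 ± 0.36, a difference of -0.63 with no overlap (exact permutation, adjusted p 0.0476). With a pseudocount of 0.1 these differences were 1.65 and -1.45, with adjusted p of 0.0476 for both. Under the 3 other scalings they ran from 1.01 to 1.25 and from -0.71 to -0.62, and the adjusted p was 0.0714 for each. With the length and GC trend removed they were 0.78 (adjusted p 0.143) and -0.33 (0.357).

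SMAD3 to SMAD2 differed by 0.07 (exact permutation, adjusted p 0.743), and its sign turned on which library was left out, from -0.053 without EB replicate 4 to 0.23 without EB replicate 2. TGFBR2 to TGFBR1 differed by 0.33 (exact permutation, adjusted p 0.286). TGFB2 to TGFB1 differed by -0.34 (exact permutation, adjusted p 0.0476). Since TGFB2 is close to 0, that last ratio mostly holds the level of TGFB1 against the pseudocount of 1, and it was -0.77 with a pseudocount of 0.1, -0.45 to -0.19 and uncalled under the other scalings and 0.014 with the length and GC trend removed.

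**Figure D2:**
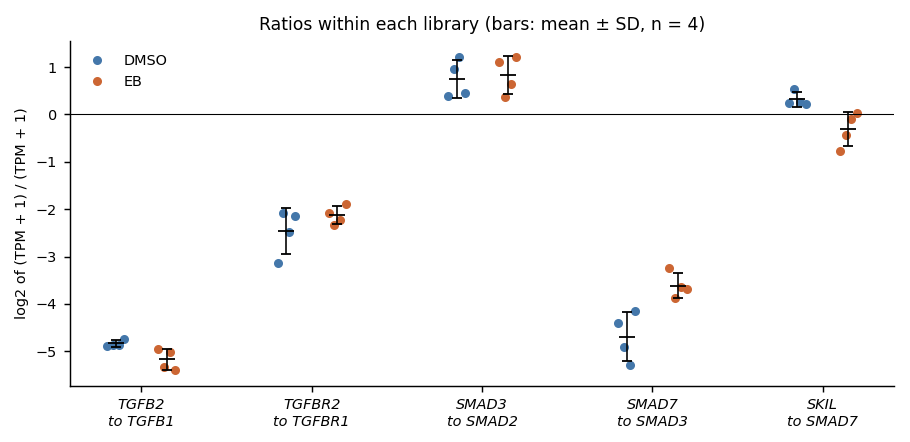
Log2 ratio of (TPM + 1) of member pairs in each library, DMSO in blue and EB in orange, with bars for the mean and SD of 4 libraries. The groups do not overlap for SMAD7 to SMAD3, where EB is higher by 1.08, for SKIL to SMAD7, where EB is lower at -0.63, or for TGFB2 to TGFB1, and they overlap for the other pairs.

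Longer transcripts had lower fold changes across the table. Over 11685 nuclear genes tested, Spearman's rho of log2 fold change with the length of the canonical transcript was -0.48, which only describes the table, since genes are not independent of each other. When these genes were split by length into 10 equal groups, the group medians ran from 0.41 in the shortest (up to 1225 nt) to -0.54 in the longest (from 7315 nt). SMAD2 (34626 nt, the longest canonical transcript among genes tested) was -0.19 from the median of its length group and SMAD3 (6464 nt) -0.21 from its own. SMAD4 (8772 nt), TGFBR1 (6492 nt) and TGFB1 (2780 nt) were 0.10, 0.19 and 0.37 above theirs. The part of length in the members' values was not tested, and the lengths the authors used for TPM are not given in the sources used here.

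**Figure D3:**
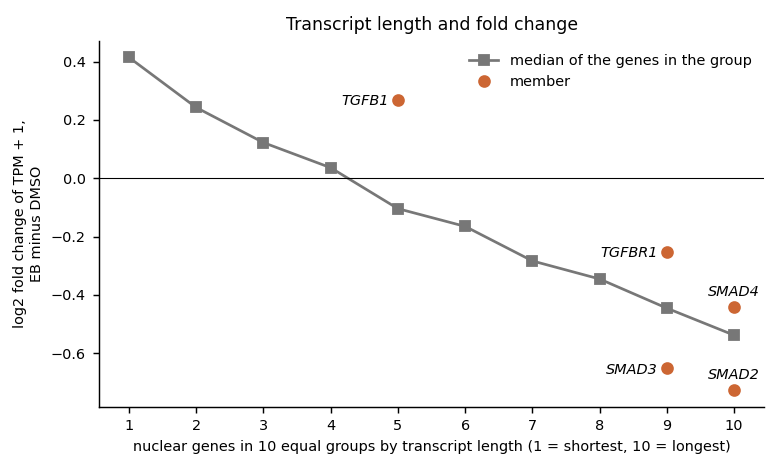
Log2 fold change of TPM + 1 (EB minus DMSO) in 10 equal groups of the nuclear genes tested, ordered by canonical transcript length, with grey squares for the median of each group and orange points for the 5 members tested. The medians fall from 0.41 to -0.54, SMAD2 and SMAD3 lie below the line, and TGFB1 lies 0.37 above it.

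The members were then set among the rest of the pathway, in 8 lists that hold 109 genes, of which 76 were tested. With EB 11 of these rose and 24 fell, so 46.1% were called against 40.3% of all genes tested, and their median log2 fold change was -0.22 against -0.11. Without DMSO replicate 4 the counts were 11 and 36. In that setting all 11725 genes tested gave 1826 higher and 4333 lower, against 1785 and 2944 with all 8 libraries. The counts of each list with all 8 libraries, above and below, stand against 15.2% higher and 25.1% lower among all genes tested. At the thresholds of the study, 4 were called, with CCN1 higher and EP300, ITGAV and TSC22D1 lower.

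Among the 12 receptor-regulated and common SMADs and their partners, all of which were tested, 1 rose and 6 fell, with a median of -0.69. Over all genes tested 15.2% rose and 25.1% fell, with a median of -0.11. Of those that fell, SMAD2, EP300, CREBBP, TRIM33 and USP9X are in the longest length group, where 49.4% were called lower. The list median was -0.40 with the length and GC trend removed. EP300 and CREBBP, the acetyltransferases that SMAD complexes recruit to DNA, fell with log2 fold changes of -1.73 (adjusted p 0.000471) and -1.23 (0.0183). EP300 was at 29.9, 32.5, 35.5 and 24.4 TPM in DMSO and 9.39, 12.7, 5.71 and 7.32 TPM in EB, with no overlap. The call for CREBBP was lost without DMSO replicate 2, DMSO replicate 3 or EB replicate 3 (adjusted p 0.0518 to 0.0541). RNF111, a ubiquitin ligase that removes SMAD repressors, fell by 1.04 on the log2 scale, TRIM33, a chromatin partner of SMAD2 and SMAD3, by 1.01, and USP9X, which removes ubiquitin from SMAD4, by 0.91. HGS, an endosomal protein that helps bring SMADs to the receptor, rose (0.60, adjusted p 0.0209). The number called in this list ran from 4 without EB replicate 3 to 9 without DMSO replicate 4.

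Of the 16 pathway inhibitors, which include SMAD7 and SKIL, 11 were tested, and of these 11 none rose and 2 fell. These were SKI and LEMD3, an inner nuclear membrane protein that binds SMADs (log2 fold change -0.59, adjusted p 0.0398). Both calls were lost without DMSO replicate 1, 2 or 3 or without EB replicate 3 or 4, and with the length and GC trend removed (SKI -0.36, adjusted p 0.0958, and LEMD3 -0.37, 0.187). LEMD3 was also lost with no filter (0.0638) and after quantile normalization (-0.28, 0.107). The count ran from 0 without DMSO replicate 1 to 5 without DMSO replicate 4. The median of this list was -0.13, near that of all genes, and -0.35 without DMSO replicate 4. The ubiquitin ligases SMURF1 and SMURF2, which work with SMAD7, had log2 fold changes of -0.38 (adjusted p 0.0539) and -0.24 (0.441). Among the inhibitors below the filter, SMAD7 and BAMBI were higher and SMAD6 lower in every EB library than in every DMSO library. BAMBI was at 0.224 ± 0.0996 TPM in DMSO and 0.684 ± 0.190 TPM in EB. With no filter 5 genes of the list were called. Of all genes below the filter 12.2% had groups that did not overlap.

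Genes known to be induced by TGF-beta moved in both directions, with 17 of 28 tested, 5 higher, 4 lower and a median of 0.30. The median was 0.043 without DMSO replicate 4, 0.12 with mitochondrially encoded genes removed and 0.069 with no filter. CCN1, a matricellular protein, rose from 35.2 ± 6.13 to 172 ± 17 TPM (log2 fold change 2.27, adjusted p 3.09e-05). CDKN1A, the cell cycle inhibitor p21, rose by 1.34, BHLHE40, a transcriptional repressor, by 0.79, and CCN2, a matricellular protein related to CCN1, by 0.74 on the log2 scale. CCN2 was at 2.07 ± 0.605 TPM in DMSO and 4.12 ± 1.08 TPM in EB, and the groups overlapped. TSC22D1, a leucine zipper protein, fell by 1.89 on the log2 scale (adjusted p 0.000113), and IL11, a cytokine, by 0.76 (0.0252, lost without DMSO replicate 1 or 2 or EB replicate 3 or 4). The list also holds SMAD7 and SKIL, which are below the filter, and many of its genes also respond to other signals.

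In the activin and BMP arm, which shares SMAD4, 14 of 23 genes were tested, 2 rose and 4 fell, with a median of -0.25. BMP6, a ligand, and NOG, which binds BMP ligands and blocks them, rose with log2 fold changes of 1.19 and 0.93. The receptors BMPR2 (-0.93) and BMPR1A (-0.66), the signal transducer SMAD1 (-0.91) and the ligand GDF11 (-0.52) fell. With the length and GC trend removed GDF11 (-0.11, adjusted p 0.516) and BMPR1A (-0.33, 0.0821) were not called, nor was GDF11 after quantile normalization (-0.20, 0.119), where the list median was -0.04. Of 7 BMP target genes 3 were tested and 2 rose, with a list median of 0.63: ID1, at 320 ± 51.4 and 490.1 ± 25.5 TPM, and ID3, at 461 ± 119 and 709 ± 101 TPM, both inhibitors of helix-loop-helix factors. The third gene tested, ID2 of the same family, was at 80.8, 120.2, 71.6 and 94.4 TPM in DMSO and 81.9, 83.9, 19.4 and 17.5 TPM in EB, where replicates 3 and 4 lay below all other libraries, and its log2 fold change of -1.17 did not pass (adjusted p 0.0872). The list median was 0.19 with the length and GC trend removed and near 0 with no filter. Neither ID1 nor ID3 was called with the length and GC trend removed (adjusted p 0.321 and 0.476), and ID3 was lost without any 1 of DMSO replicates 2 and 3 and EB replicates 1, 2 and 3.

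All 10 genes of the branch that signals without SMADs were tested, none rose and 5 fell, with a median of -0.44. Over all genes tested 15.2% rose and 25.1% fell, with a median of -0.11. ROCK1 and ROCK2 are in the longest length group, which had a median of -0.54 and 49.4% called lower. TAB3 (6647 nt) is in the next longest group, with a median of -0.45 and 42.6% called lower. TAB2 (4363 nt) and PARD6A (1244 nt), which also fell, are in shorter groups, where 33.3% and 10.0% were called lower. The part of length in this list was not tested. TAB2 and TAB3, adaptors of the kinase TAK1, fell by 0.74 and 0.78 on the log2 scale. ROCK1 and ROCK2, kinases of the actin skeleton, fell by 1.0 and 0.43, and PARD6A, a polarity protein that binds the receptors, by 0.59. With the length and GC trend removed ROCK1 (adjusted p 0.106) and ROCK2 (0.870) were no longer called. The call for ROCK2 was lost without any 1 of DMSO replicates 1, 2 and 3 and EB replicates 1, 3 and 4 (adjusted p 0.0513 to 0.0817), and that for PARD6A without DMSO replicate 1, 2 or 3 or EB replicate 1 or 4 (0.0646 to 0.0771).

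**Figure D4:**
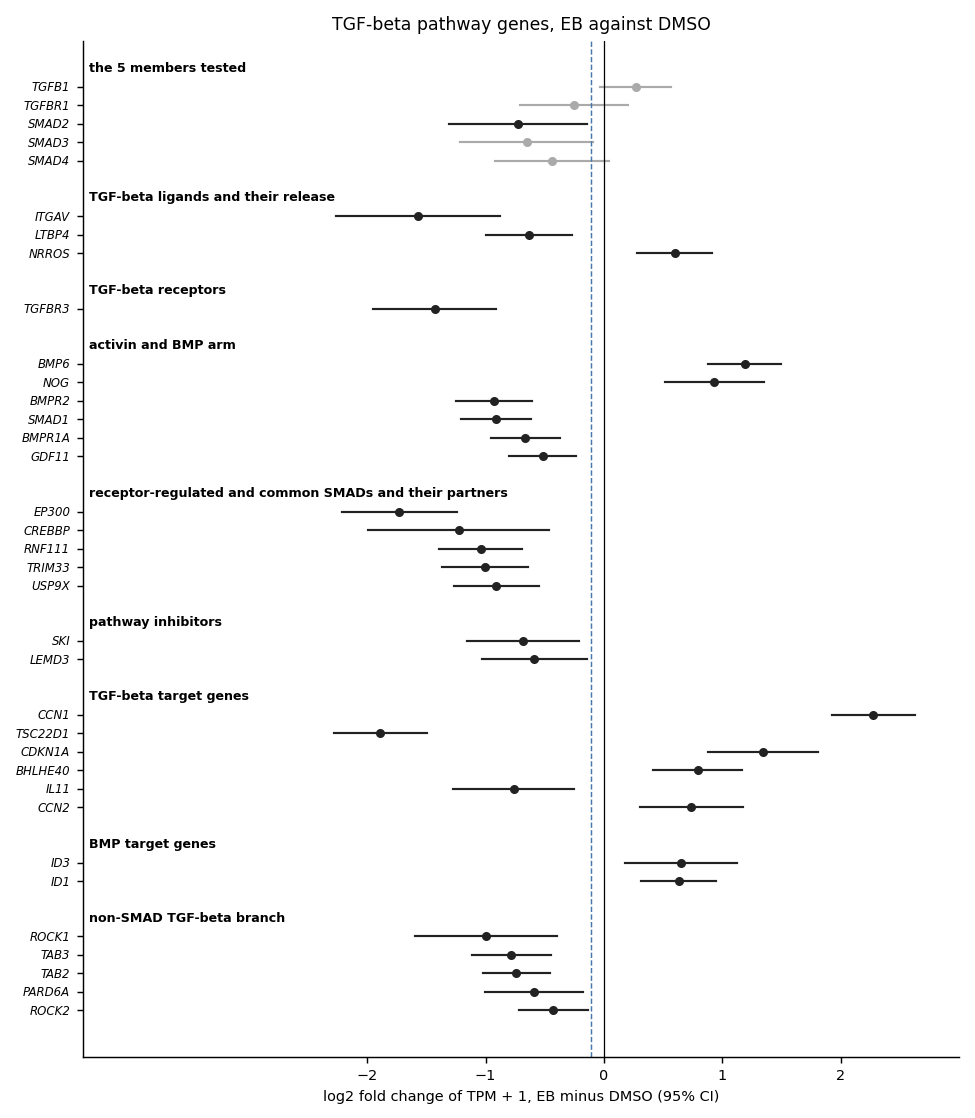
Log2 fold change of TPM + 1 (EB minus DMSO) with its 95% confidence interval for the 5 members tested and for up to 6 called genes of each pathway list, black at an adjusted p under 0.05 and grey otherwise, with a dashed line at the median of all genes tested (-0.11). SMAD2 is the black point among the members, EP300 at -1.73 and CCN1 at 2.27 lie near the ends, and the genes in the lists were drawn because they were called.

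The values around the pathway moved too, and their part in the members' values was not tested. Of the 4 ductal markers tested, KRT19 (log2 fold change 1.80), KRT18 (1.49) and KRT8 (1.2) rose and SOX9 (-1.38) fell. COL1A2, the 1 marker of other cell types that was tested and itself a gene that TGF-beta can induce, fell by 0.83 on the log2 scale, from 79.4 ± 12.2 to 43.9 ± 5.53 TPM. DMSO replicate 4 had the highest share of mitochondrially encoded RNA, 39.0%, and leaving that library out took the members called from 1 to 3. Among all 11725 genes tested it took the genes called from 4729 to 6159.

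The genes tested whose profile over the 8 libraries lay nearest to that of SMAD2, the member with the largest log2 fold change of TPM + 1 among the 5 tested, were SEC14L1, NEURL2 and NTF4. The measure was the root mean square distance between log2(TPM + 1) profiles centred on each gene's mean, over 11724 genes. It was 0.107, 0.148 and 0.152 for these, against a median of 0.506. SEC14L1 was at 39.1, 42.2, 44.6 and 27.8 TPM in DMSO and 20.6, 38.4, 24.0 and 17.2 TPM in EB, and like SMAD2 it had its highest EB value in replicate 2 and its lowest DMSO value in replicate 4.

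**Figure D5:**
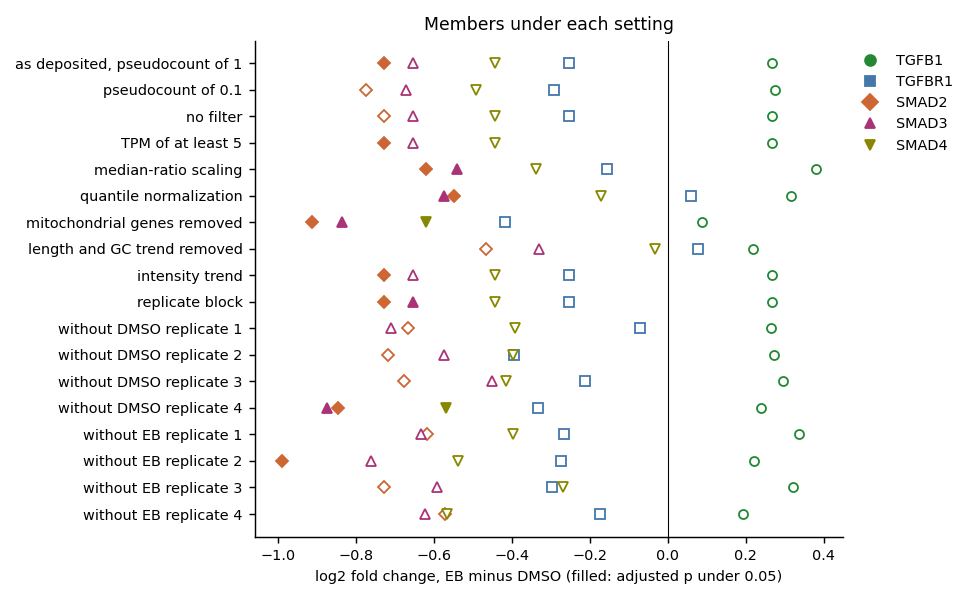
Log2 fold change (EB minus DMSO) of the 5 members tested under each setting, with filled markers at an adjusted p under 0.05. TGFB1 stays to the right of 0 and SMAD2, SMAD3 and SMAD4 to the left under all settings shown, TGFBR1 crosses 0 under quantile normalization and with the length and GC trend removed, and the filled markers change from setting to setting.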

How the data were processed

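RNA was extracted from PANC-1 cells, made into mRNA libraries and sequenced on an Illumina NovaSeq, and the authors processed the reads in CLC Genomics Workbench. They deposited 1 table of TPM for 20263 genes in 8 libraries, and the tools that the methods name besides (HISAT2, StringTie, Bowtie2) have no stated role. The submitters' processing notes name hg38, GRCm38 and mm10, and the identifiers are human. Columns lettered C were read as DMSO and H as EB, the letter H being unexplained. TPM keep no depth, so no count test or counting interval was possible, and replicate number limits the precision.

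Symbols and coordinates were taken from GENCODE on hg38 (20148 identifiers matched, 115 did not). The members, lists and tests were chosen with earlier results of these data known. Genes that reached 1 TPM in 4 or more libraries were fitted with limma 3.58.1 in R 4.3.3 on log2(TPM + 1) without trend, and a fold change on this scale understates that of low genes. Members below the filter and 5 ratios of members were compared by exact two-sided permutation over 70 assignments. Besides the 9 members, up to 6 called genes with the largest absolute log2 fold change were named from each of 10 lists (8 of the pathway, 2 of cell markers), with TGFB3, TGFBR3, SKI and SMAD6, and 3 genes nearest in profile to the tested member with the largest absolute fold change of log2(TPM + 1). A gene of these lists is not reported here and was left out of their counts. HGS, SMURF1, SMURF2, ID2 and BAMBI were named after their values were seen. Alternatives were a pseudocount of 0.1, no filter or 5 TPM, median-ratio scaling, quantile normalization, removal of mitochondrially encoded genes, removal of a spline trend (5 df each) on length and GC content, an intensity trend, the replicate number as a block, the thresholds of the study and each library left out. The scripts were tested on simulated data.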

Additional observations from a re-analysis of the deposited data

Results flagged for a closer look

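Among 102 groups of 4 libraries examined for genes and ratios named above, 10 held a library whose gap to the nearest other library took more of the range than Dixon's 95% limit allows. Of these 10, 8 were DMSO replicate 4. Chance gives about 1 such group in 20, but these groups come from the same 8 libraries and are not independent. Their number was therefore not tested against that share. DMSO replicate 4 was the lowest DMSO library for SMAD4 (8.04 TPM), NRROS (4.62 TPM), BMPR2 (4.34 TPM), SKI (28.5 TPM), TSC22D1 (87.9 TPM), BHLHE40 (17.9 TPM) and KRT18 (342 TPM), and the highest for the log2 ratio of TGFB2 to TGFB1 (-4.73). This library also had the largest share of mitochondrially encoded RNA, 39.0%. The other groups were TGFB2 in EB, where replicate 2 was listed at 0, and the log2 ratio of SKIL to SMAD7 in DMSO, where replicate 2 stood above the rest at 0.54.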

How the results depend on the processing

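TGFB1, TGFBR2, SMAD7 and the ratio of TGFBR2 to TGFBR1 kept their direction and their side of the threshold under every alternative run on them. For SMAD7 the pseudocount of 0.1 could not have moved the permutation p, as given above. For ratios and members below the filter, leaving out a library gave values with no test, and the block was run on the ratios only. All genes called (4729) were 244 at the thresholds of the study, 63 higher and 181 lower, and the higher calls were 3039 after median-ratio scaling and 2782 after quantile normalization, the lower calls 4954 with mitochondrially encoded genes removed. Higher calls made up 37.7% of all calls, 49.7% and 50.2% after those scalings, 22.7% with mitochondrially encoded genes removed and 29.6% without DMSO replicate 4, and the median of all genes moved from -0.11 to -0.01, 0.02, -0.28 and -0.20. The members called (1) were 0 with a pseudocount of 0.1, with the length and GC trend removed and at the thresholds of the study, 2 after median-ratio scaling, after quantile normalization and with the replicate block, and 3 with mitochondrially encoded genes removed. Pathway genes called were 4 at the thresholds of the study, 1 higher and 3 lower, 17 were higher after quantile normalization, and 42 were lower with mitochondrially encoded genes removed.

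SMAD2 was -0.77 with a pseudocount of 0.1, -0.73 with no filter and at the thresholds of the study, and -0.47 with the length and GC trend removed, uncalled in each. SMAD3 was called at -0.54 (median-ratio), -0.57 (quantile), -0.84 (mitochondrially encoded genes removed) and -0.65 (replicate block, adjusted p 0.0399), and SMAD4 at -0.62 with mitochondrially encoded genes removed. TGFBR1 turned to 0.059 (quantile) and 0.078 (length and GC). TGFB2 was past the threshold no more at -0.067 (median-ratio), -0.070 (limma with no filter, adjusted p 0.281), -0.053 (quantile) and -0.10 (mitochondrially encoded genes removed), and turned to 0.23 with the length and GC trend removed, where SKIL turned to 0.13. The trend was fitted on tested genes, so at levels near 0 it sets most of the value. There the ratio of TGFB2 to TGFB1 turned to 0.014, SMAD7 to SMAD3 was 0.78 and SKIL to SMAD7 -0.33, both uncalled. Scalings of the ratios were added after the data were seen. After median-ratio scaling, quantile normalization and removal of mitochondrially encoded genes the ratio of TGFB2 to TGFB1 was -0.45, -0.37 and -0.19, SMAD7 to SMAD3 1.01, 1.14 and 1.25, and SKIL to SMAD7 -0.62, -0.62 and -0.71, all uncalled, and SMAD3 to SMAD2 turned to -0.025 under quantile normalization. The other causes were not tested.

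Leaving out 1 library gave 3382 to 6159 genes called, 1270 to 1826 higher and 2073 to 4333 lower, 0 to 3 members and 26 to 47 pathway genes (8 to 11 higher, 16 to 36 lower). It gave -0.99 to -0.57 for SMAD2, -0.87 to -0.45 for SMAD3, -0.57 to -0.27 for SMAD4, -0.39 to -0.071 for TGFBR1, and -0.053 to 0.23 for the ratio of SMAD3 to SMAD2.

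Deviations of same-numbered libraries from their group means correlated at 0.18, 0.05, -0.09 and 0.28 for replicates 1 to 4. Libraries of different number ran from -0.24 to 0.13, and not every library correlated best with its own. The labels give only the shared number, so a pairing or shared batch cannot be told from these values. With the replicate block 2231 genes were higher and 3525 lower, and the ratios of TGFB2 to TGFB1 (-0.34, adjusted p 0.278) and SKIL to SMAD7 (-0.63, 0.0716) were uncalled. TPM keep no depth, so the precision of SMAD7, SKIL, TGFBR2 and TGFB2 in reads is unknown.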
